A study of Mus musculus with 8 samples.

Results

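The 50 genes described here encode the core machinery of DNA replication in mouse cells. They were taken by gene symbol from the deposited expression table, in which 50 of 50 were found among 48709 genes, and 692 introns carrying these gene names were found among the 204362 introns common to all 8 deposited intron tables. By role they fall into 11 sets: 6 subunits of the origin recognition complex, 3 licensing genes, the 6 MCM2-7 helicase subunits, 8 genes of helicase activation, 4 of primase and polymerase alpha, 5 of polymerases delta and epsilon, 6 of the clamp and its loader, 2 of flap removal and ligation, 3 of the single-strand binding protein RPA, 5 of nucleotide supply and 2 of chromatin assembly. All 50 passed the filter on low values (at least 1 TPM in at least 2 libraries).

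Polyadenylated RNA of untreated primary cells from healthy mouse bone marrow was measured in 8 libraries. MDP, the monocyte-dendritic cell progenitor (genotype tag WT), gave 1 library. cMoP, the common monocyte progenitor, gave 2, and Ly6Chi monocytes, which carry much of the surface protein Ly6C, gave 2; both groups are tagged WT and described as FL_FL, the usual mark of a floxed allele. Ly6Clo monocytes, the less Ly6C-bearing cells that arise from Ly6Chi monocytes, gave 1 library tagged WT, and 2 further libraries of Ly6Chi monocytes are labelled as a knockout of Upf2, a gene needed for nonsense-mediated decay of transcripts with early stop codons. The descriptions of MDP and Ly6Clo carry no FL_FL mark. From MDP to cMoP and from Ly6Chi to Ly6Clo, stage and that mark therefore cannot be told apart. The promoter that drives the recombinase, the animals per library and the mouse age are not given in the sources used here, and the cell type tag reads "Monocytic cell line", against the bone marrow of the source names. The labels do not tie replicates to different mice. All p-values therefore reflect library-to-library spread, which can be purely technical.

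Eukaryotic cells copy their DNA once per cycle. Origins are bound by the origin recognition complex, licensed by loading the MCM helicase with the help of Cdc6 and Cdt1, and fired when kinases and loading factors convert the helicase into its active form with Cdc45 and GINS. Primase and the polymerases then copy the strands with the sliding clamp, while the supply of deoxynucleotides and the packaging of the new DNA keep pace. Many of these genes are known targets of E2F transcription factors, and progenitors in bone marrow divide while mature circulating monocytes largely do not.

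The promoter windows of members are shown because the members moved together between stages. RefSeq windows of 300 bases, from 250 before to 50 after the annotated start of a transcript (build GRCm38.p6), were found for 42 of the 50; no window was found for Gmnn, Mcm4, Gins1, Gins2, Gins4, Prim2, Pole and Rfc2. Words of 3 kinds were searched on both strands: the E2F words TTTCGCGC, TTTGGCGC, TTTCCCGC and TTTGCCGC, the word CCAAT of the CCAAT box, and the words TTTGAA and TTCGAA of the CHR element of mitotic genes. Capitals mark a match, and overlapping matches run together. The first 6 windows are those of the members with the largest change between cMoP and Ly6Chi that hold a match (chr4:108579204-108579503 on the plus strand for Orc1; chr11:5877614-5877913 on the minus strand for Pold2; chr6:88898731-88899030 on the minus strand for Mcm2, chr1:20820263-20820562 on the minus strand for Mcm3, chr1:128359656-128359955 on the minus strand for Mcm6, chr11:98907901-98908200 on the plus strand for Cdc6), and the last 2 hold none (chr2:125247265-125247564 on the plus strand for Dut and chr16:93883651-93883950 on the plus strand for Chaf1b).
Orc1: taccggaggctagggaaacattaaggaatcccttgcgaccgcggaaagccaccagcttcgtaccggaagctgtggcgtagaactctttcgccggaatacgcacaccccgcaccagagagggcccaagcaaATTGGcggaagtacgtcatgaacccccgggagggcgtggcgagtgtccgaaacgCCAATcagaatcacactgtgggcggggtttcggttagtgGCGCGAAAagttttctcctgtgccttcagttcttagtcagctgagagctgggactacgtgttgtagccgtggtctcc
Pold2: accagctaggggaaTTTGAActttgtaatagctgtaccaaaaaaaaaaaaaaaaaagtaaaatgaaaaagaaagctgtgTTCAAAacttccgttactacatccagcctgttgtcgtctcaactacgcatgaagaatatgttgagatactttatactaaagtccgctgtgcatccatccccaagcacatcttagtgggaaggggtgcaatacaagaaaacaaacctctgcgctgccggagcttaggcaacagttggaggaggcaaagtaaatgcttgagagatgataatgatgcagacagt
Mcm2: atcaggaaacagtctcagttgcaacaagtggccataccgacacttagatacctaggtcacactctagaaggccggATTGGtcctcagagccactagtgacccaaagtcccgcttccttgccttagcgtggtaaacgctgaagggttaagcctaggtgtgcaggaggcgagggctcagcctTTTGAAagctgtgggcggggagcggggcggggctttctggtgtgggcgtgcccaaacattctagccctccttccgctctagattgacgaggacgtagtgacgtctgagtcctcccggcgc
Mcm3: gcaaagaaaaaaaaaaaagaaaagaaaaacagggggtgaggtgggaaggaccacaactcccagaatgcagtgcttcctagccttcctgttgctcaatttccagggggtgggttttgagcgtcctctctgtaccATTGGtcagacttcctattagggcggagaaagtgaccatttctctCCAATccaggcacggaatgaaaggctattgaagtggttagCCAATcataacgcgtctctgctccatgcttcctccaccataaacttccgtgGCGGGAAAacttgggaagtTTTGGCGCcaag
Mcm6: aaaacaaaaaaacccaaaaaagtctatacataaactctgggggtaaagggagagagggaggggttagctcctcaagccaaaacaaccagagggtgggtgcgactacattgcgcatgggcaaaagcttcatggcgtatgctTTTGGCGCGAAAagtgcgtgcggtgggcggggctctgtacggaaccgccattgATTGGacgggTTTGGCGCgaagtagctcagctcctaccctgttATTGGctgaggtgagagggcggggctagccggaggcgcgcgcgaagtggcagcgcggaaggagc
Cdc6: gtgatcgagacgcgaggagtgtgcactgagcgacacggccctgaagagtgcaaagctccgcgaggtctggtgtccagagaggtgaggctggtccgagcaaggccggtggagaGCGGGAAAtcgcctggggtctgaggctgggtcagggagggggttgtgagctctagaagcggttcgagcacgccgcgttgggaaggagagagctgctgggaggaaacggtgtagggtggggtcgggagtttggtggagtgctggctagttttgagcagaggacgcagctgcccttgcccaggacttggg
Dut: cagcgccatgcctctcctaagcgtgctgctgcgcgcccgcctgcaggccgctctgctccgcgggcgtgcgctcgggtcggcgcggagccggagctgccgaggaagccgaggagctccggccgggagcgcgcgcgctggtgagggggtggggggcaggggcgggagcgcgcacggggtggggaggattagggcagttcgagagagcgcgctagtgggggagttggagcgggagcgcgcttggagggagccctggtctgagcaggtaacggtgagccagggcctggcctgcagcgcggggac
Chaf1b: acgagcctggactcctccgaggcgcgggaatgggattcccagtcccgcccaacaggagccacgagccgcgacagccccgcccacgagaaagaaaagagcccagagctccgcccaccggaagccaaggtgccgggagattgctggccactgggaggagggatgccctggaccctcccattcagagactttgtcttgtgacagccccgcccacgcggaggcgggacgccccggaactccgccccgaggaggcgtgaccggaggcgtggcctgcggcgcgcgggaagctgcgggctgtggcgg
Orc1, Mcm3, Mcm6 and Cdc6 held an E2F word, and of these Mcm3 and Mcm6 held more than 1. The 42 matched members had 51 windows, and a gene counted as holding a word if any of its windows did. Where a printed gene had more than 1 window, a window with a match was taken first. Over all matched members, 15 of 42 (35.7%) held an E2F word, against 704 of 27025 genes with a window (2.61%) and 7.04% of the genes lower in Ly6Chi than in cMoP. The word CCAAT was in 24 of 42 members (57.1%) and in 41.1% of all genes. A CHR word was in 9 of 42 (21.4%) and in 21.7% of all genes. Among the 8949 genes with a window that passed the expression filter, 4.89% held an E2F word, 43.5% a CCAAT word and 16.65% a CHR word. Among 14 mitosis genes with a window, 1 held an E2F word, 13 a CCAAT word and 11 a CHR word. A further 8 members held none of these words, which says only that these letters were not in this window.

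The members' levels were compared with limma on log2(TPM + 1) over 13126 genes, and a gene was called at a Benjamini-Hochberg adjusted p under 0.05. The 1 added to each TPM makes log2 changes smaller than the TPM shares given beside them, most of all at low TPM. TPM is a share of all transcripts corrected for gene length, so levels of different genes can be set side by side. Because a TPM is a share, changes relative to the median of all genes are given as relative log2 changes, which are log2 changes minus that median. Depth is known only from the intron tables: 28925018 to 37833159 spliced reads per library, with 6.09 boundary reads per 100 spliced reads in cMoP replicate 2 and 8.32 to 11.6 in the others. In a bulk sample, fewer cycling cells and less RNA per cell cannot be told apart. The first step below is the one from cMoP to Ly6Chi and the second step the one from Ly6Chi to Ly6Clo. Where levels are listed without group names, they follow the order MDP, cMoP, Ly6Chi and Ly6Clo.

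The members were highest in the progenitors and lowest in Ly6Clo monocytes. Their summed level was 6253 TPM in MDP, 5829 and 5948 in the cMoP pair, 2529 and 2404 in Ly6Chi, 1054 in Ly6Clo, while the knockout pair had 2882 and 2778. That is 0.625% of all transcripts in MDP, 0.583% and 0.595% in the cMoP pair, 0.253% and 0.240% in Ly6Chi, and 0.105% in Ly6Clo. The Ly6Chi libraries do not overlap with the cMoP libraries, and Ly6Clo lies below both Ly6Chi libraries. The median member level was 78.1 TPM in MDP, 76.1 and 80.5 in the cMoP pair, 38.6 and 35.9 in Ly6Chi and 14.25 in Ly6Clo. In every one of the 8 libraries Pcna, the sliding clamp, was the highest member and Orc1, the origin recognition subunit that is known to be cell-cycle regulated, the lowest.

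**Figure D1:**
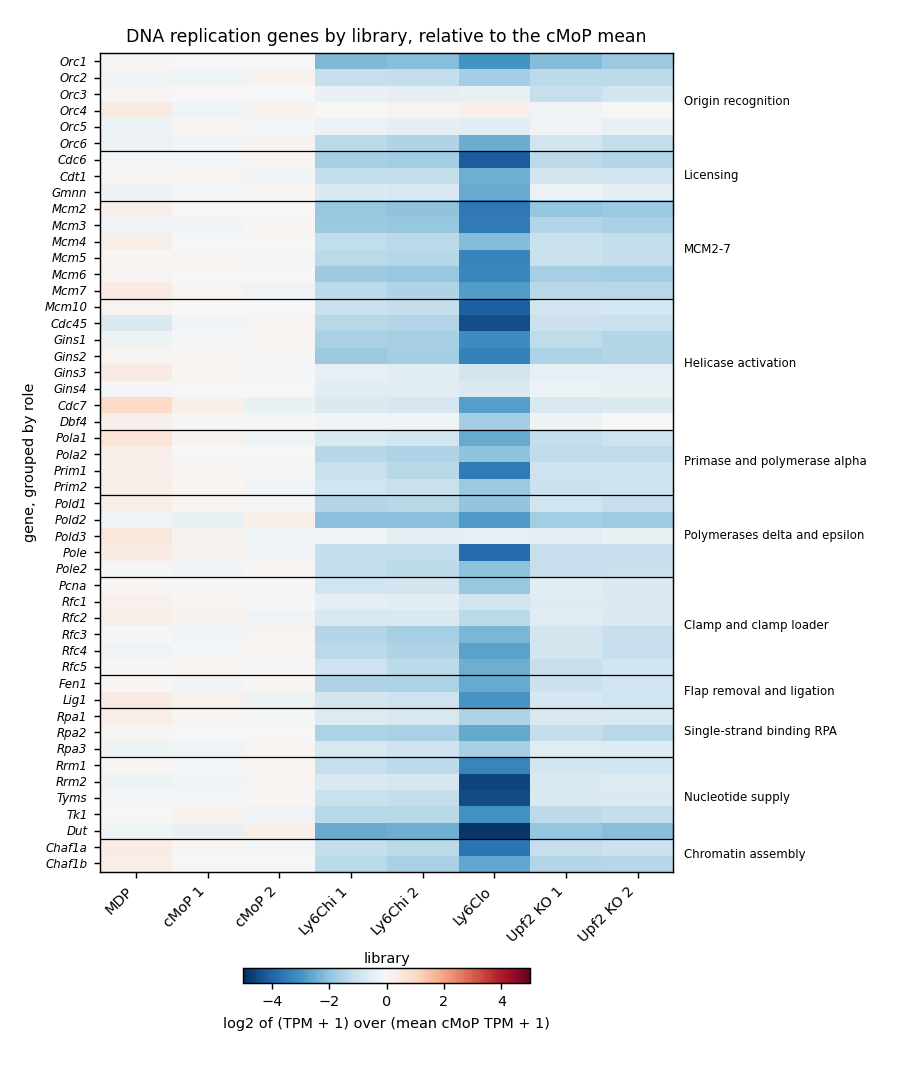
Log2 of (TPM + 1) over (mean cMoP TPM + 1) for the 50 replication genes (rows, grouped by role) in the 8 libraries (columns); blue is below the cMoP mean. The Ly6Clo column is the deepest blue, most of all for Dut, Rrm2, Tyms and Cdc45, and Orc4 stays near or above the cMoP mean there.

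Over the 4 control stages, 47 of the 50 members varied by limma's F-test, against 63% of all genes; Orc3, Orc4 and Orc5 were not called. From MDP to cMoP none was called by limma, with 1.35% of all genes higher and 2.52% lower; 4 members (8%) were at an unadjusted p under 0.05, against 26.9% of all genes. DESeq2 on spliced reads called 1 of 49 members (2.04%), against 8.96% of all genes. Without cMoP replicate 1 limma called 10 members (20%), 3 higher and 7 lower, against 37.5% of all genes. The median of all genes moved by -0.28 between MDP and cMoP, and the members' median relative change was 0.19, from -0.71 for Cdc7 to 0.99 for Cdc45. Cdc45, which joins MCM and GINS in the active helicase, stood at 64.7 TPM in MDP and 96.1 and 117 in cMoP. Cdc7, the kinase that fires origins, stood at 49.98 in MDP and 30.5 and 19.8 in cMoP. With median centring 408 genes were called higher and 295 lower, against 177 and 331 on the deposited scale.

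From cMoP to Ly6Chi, 46 of the 50 members were lower and none higher, against 23.3% of all genes lower and 32.3% higher. The median of all genes moved by 0.19 here and 3354 genes were called higher and 4462 lower after median centring, against 4235 and 3053. The members' median relative change was -1.44, from -2.65 for Dut to -0.11 for Orc4, and all 50 were below zero. Members with an E2F word had a median relative change of -1.58 (15 genes) and matched members without one -1.43 (27 genes); at the second step the medians were -1.27 and -1.30. For the CHR words the medians at the first step were -1.62 (9 genes) and -1.43 (33 genes). No test was made on these medians. Ly6Chi libraries held 41.5% of the cMoP level in the median member, and 33 members held under 50%. Both Ly6Chi libraries lay below both cMoP libraries for 48 of 50 members (34.2% of all genes), and the groups overlapped for Orc4 and Pold3. Orc4, Orc5, Pold3 and Dbf4 were not called. The libraries of these groups also differ in the 3' lean of their spliced reads (reads at 3' against 5' introns of a gene). The median log2 ratio of that lean over the members was 0.37 and 0.59 in the cMoP pair and 0.14 and 0.25 in Ly6Chi. Its part in the result was not tested beyond a fit with that lean as a covariate. In that fit 40 members were lower and none higher, against 1709 lower and 1614 higher of 13126 genes.

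The origin recognition complex marks the sites where replication can start. Orc1 stood at 12.94 TPM in MDP, 12.34 and 12.33 in the cMoP pair, 1.79 and 2.01 in Ly6Chi and 0.68 in Ly6Clo. The cMoP libraries are near-identical for it and the Ly6Chi libraries lie far below. Ly6Chi held 15.4% of the cMoP level, a log2 change of -2.20 (SE 0.19, adjusted p = 0.000702), the smallest share of the cMoP level held by any member. Orc6, the smallest subunit, stood at 73.2 in MDP, 79.2 and 101 in the cMoP pair, 34.8 and 31.4 in Ly6Chi and 15.4 in Ly6Clo, and was called lower at both steps. Orc2 was lower in Ly6Chi (43.2% of cMoP), as was Orc3 (74.7%, adjusted p = 0.0461). Orc4 stood at 43.8 in MDP, 27.2 and 36.5 in the cMoP pair, 31.9 and 35.3 in Ly6Chi and 37.9 in Ly6Clo. Orc5 stood at 17.5, then 22.1 and 19.9, 17.03 and 14.8, and 13.9. For Orc4 the Ly6Clo value lies inside the range of the MDP and cMoP libraries, and for Orc5 both Ly6Chi libraries lie below both cMoP libraries without passing the test (adjusted p = 0.0929). Within the complex, Orc1 made 5.19% of the summed subunit TPM in MDP and 0.534% in Ly6Clo, whereas Orc3 made 24.6% and 36.4%. These are shares, and no test was made on them.

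The 3 licensing genes were lower at both steps. Cdc6, the loader of MCM, stood at 50.4 TPM in MDP, 48.5 and 55.7 in the cMoP pair, 15.8 and 14.7 in Ly6Chi and 1.99 in Ly6Clo. The groups do not overlap at either step, and both falls were called, with log2 changes of -1.71 (SE 0.15) and -2.44 (SE 0.19). Gmnn encodes geminin, the inhibitor of Cdt1, and stood at 103 in MDP, 113 and 130 in the cMoP pair, 73.9 and 68.55 in Ly6Chi and 20.4 in Ly6Clo. Cdt1, the partner that geminin inhibits, stood at 119, then 125 and 105, 50.4 and 49.2, and 20.6. The ratio of Cdt1 to Gmnn TPM was 1.16 in MDP, 1.11 and 0.80 in the cMoP pair, 0.68 and 0.72 in Ly6Chi and 1.01 in Ly6Clo. Both Ly6Chi values lie below both cMoP values, and no test was made on this ratio.

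The MCM2-7 complex unwinds the DNA, and all 6 subunits fell at both steps. Mcm2 stood at 191 TPM in MDP, 162 and 158 in the cMoP pair, 41.9 and 38.9 in Ly6Chi and 12.55 in Ly6Clo. Mcm3 stood at 276, then 284 and 336, 83.8 and 82.8, and 26.04. Mcm6 stood at 379, then 339 and 341, 96.2 and 91.3, and 34.3. For each of these genes the groups do not overlap at either step, and the MDP and cMoP libraries lie close together. Their log2 changes from cMoP to Ly6Chi were -1.96 (SE 0.12), -1.88 (SE 0.13) and -1.85 (SE 0.10). The complex held 32.2% of its cMoP level in Ly6Chi and 11.01% in Ly6Clo. Mcm4 made 7.30% to 9.50% of the summed subunit TPM in the other libraries and 14.7% in Ly6Clo.

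Of the 8 genes of helicase activation, 7 were lower at the first step and 6 at the second. Gins1 and Gins2 encode subunits of GINS, a part of the active helicase. Gins2 stood at 71.0 TPM in MDP, 67.1 and 62.4 in the cMoP pair, 17.4 and 19.2 in Ly6Chi and 5.39 in Ly6Clo, and Gins1 at 59.7, then 65.9 and 76.4, 22.6 and 21.9, and 7.23. Both were called lower at both steps. Gins3 and Gins4, the other subunits, kept 68.8% and 67.9% of the cMoP level in Ly6Chi, were called lower there, and were not called at the second step. Cdc45 stood at 39.7 and 37.98 TPM in Ly6Chi and 3.92 in Ly6Clo, so that both Ly6Chi libraries lie below the MDP and cMoP libraries and Ly6Clo lies below all of them. Mcm10, which helps to start the helicase, stood at 57.9 in MDP, 51.0 and 52.9 in the cMoP pair, 23.6 and 22.01 in Ly6Chi and 2.17 in Ly6Clo. Dbf4, the activating subunit of the Cdc7 kinase, stood at 59.3, then 51.2 and 46.8, 44.3 and 43.8, and 14.5. Dbf4 is the single member that was not called at the first step (adjusted p = 0.402) and was called lower at the second (log2 change -1.54, SE 0.18, adjusted p = 0.00431). The ratio of Dbf4 to Cdc7 TPM was 1.19 in MDP, 1.68 and 2.36 in the cMoP pair, 2.98 and 3.19 in Ly6Chi and 5.03 in Ly6Clo, with no test made on it.

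Primase and polymerase alpha lay down the primers, and all 4 of their genes fell from cMoP to Ly6Chi. Prim1, the catalytic primase subunit, stood at 92.4 TPM in MDP, 83.5 and 71.4 in the cMoP pair, 35.2 and 28.8 in Ly6Chi and 5.68 in Ly6Clo. Pola2 encodes the B subunit of polymerase alpha and stood at 79.6, then 66.9 and 65.1, 24.0 and 21.8, and 15.7. Prim1 fell again to Ly6Clo, and Pola2 was not called there (log2 change -0.52, adjusted p = 0.0912). Of the 5 genes of the leading- and lagging-strand polymerases epsilon and delta, 4 were lower at the first step and 1, Pole, at the second. Pole, the catalytic subunit of polymerase epsilon, stood at 48.9 in MDP, 42.8 and 33.1 in the cMoP pair, 16.1 and 15.6 in Ly6Chi and 1.68 in Ly6Clo. Pole2, its second subunit, stood at 33.3, then 31.4 and 37.2, 14.4 and 13.2, and 7.56, so that the ratio of Pole to Pole2 was 0.22 in Ly6Clo and 0.89 to 1.47 in the other libraries. Among the genes of polymerase delta, Pold1, the catalytic subunit, stood at 129 in MDP, 113 and 98.6 in the cMoP pair, 37.5 and 40.3 in Ly6Chi and 26.1 in Ly6Clo. Pold2 stood at 93.8, then 81.9 and 131, 24.1 and 23.9, and 14.01; its 2 cMoP libraries differ from each other more than its 2 Ly6Chi libraries do. Pold3 stood at 95.5, then 72.7 and 55.1, 55.6 and 47.1, and 48.1, and was called in no comparison of 2 groups, though it varied over the 4 control stages by the F-test.

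The sliding clamp and its loader hold the polymerases on the DNA, and all 6 of their genes fell from cMoP to Ly6Chi. Pcna stood at 534 TPM in MDP, 483 and 523 in the cMoP pair, 254 and 264 in Ly6Chi and 136 in Ly6Clo. The groups do not overlap, and both falls were called, with log2 changes of -0.95 (SE 0.12, adjusted p = 0.00181) and -0.92 (SE 0.14, adjusted p = 0.0123). Of the loader genes, Rfc4 and Rfc5 also fell at the second step, while Rfc1, Rfc2 and Rfc3 were not called there. Lig1, the ligase that seals Okazaki fragments, stood at 151 in MDP, 132 and 93.8 in the cMoP pair, 59.5 and 55.0 in Ly6Chi and 13.8 in Ly6Clo. Fen1, which trims the flaps before sealing, held 33.2% of its cMoP level in Ly6Chi and 16.7% in Ly6Clo. Rpa1, the large subunit of the single-strand binding protein, stood at 165, then 139 and 126, 83.7 and 76.7, and 44.3. Rpa2 stood at 104, then 100.5 and 102, 33.6 and 32.4, and 16.6. Lig1, Fen1, Rpa1 and Rpa2 were each called lower at both steps, with Ly6Clo below every other library.

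The nucleotide supply genes held the smallest share of the cMoP level in Ly6Clo of any role, 6.24% of their summed TPM. Dut, which removes dUTP, stood at 269 TPM in MDP, 244 and 386 in the cMoP pair, 53.8 and 56.8 in Ly6Chi and 9.99 in Ly6Clo. Ly6Chi held 17.5% of the cMoP level and Ly6Clo 3.17%, and both falls were called (log2 changes -2.45, SE 0.23, and -2.36, SE 0.28). Ribonucleotide reductase makes deoxynucleotides from a large subunit, Rrm1, and a small one, Rrm2. Rrm2 stood at 169 in MDP, 181 and 220 in the cMoP pair, 119 and 111 in Ly6Chi and 7.38 in Ly6Clo. Rrm1 stood at 232, then 208 and 239, 99.1 and 89.4, and 22.02. The ratio of Rrm2 to Rrm1 was 0.73 in MDP, 0.87 and 0.92 in the cMoP pair, 1.198 and 1.25 in Ly6Chi and 0.34 in Ly6Clo, so that Ly6Chi lies above and Ly6Clo below every other control library. Tyms, thymidylate synthase, stood at 174, then 180 and 191, 85.1 and 81.7, and 7.41. Tk1, thymidine kinase, held 37.8% of its cMoP level in Ly6Chi and 11.8% in Ly6Clo. Chaf1a, the large subunit of the chromatin assembly factor, stood at 76.7, then 63.0 and 56.2, 25.2 and 23.1, and 3.83, and it and Chaf1b were called lower at both steps.

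**Figure D2:**
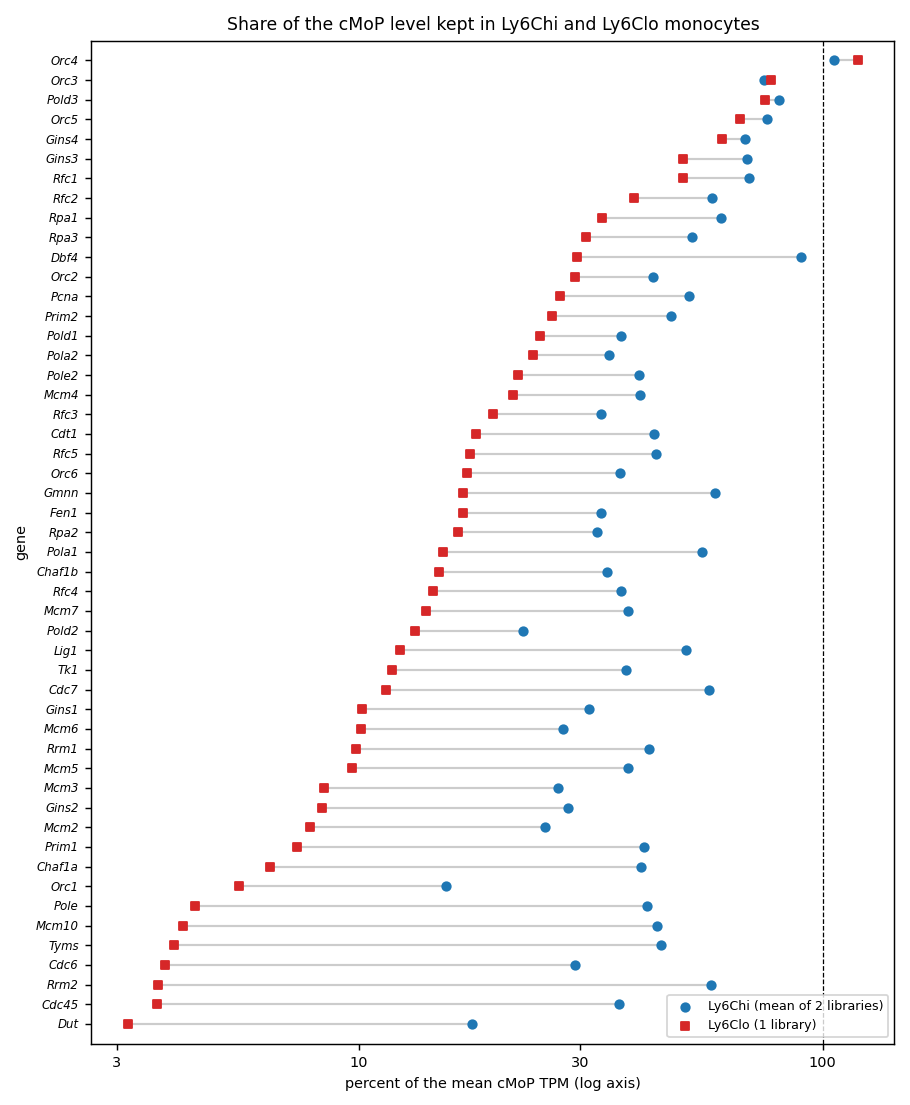
Share of the mean cMoP TPM that remained in Ly6Chi (circles, mean of 2 libraries) and Ly6Clo (squares, 1 library) for each of the 50 genes, on a log axis in percent. Ly6Clo shares run from 3.17% (Dut) to 119% (Orc4), and Ly6Chi shares from 15.4% (Orc1) to 106% (Orc4).

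From Ly6Chi to Ly6Clo, 34 of the 50 members were lower and none higher, against 7.12% of all genes lower and 5.9% higher. Without Ly6Chi replicate 1 the count was 19 (38%, with 4.47% of all genes called in either direction) and without replicate 2 it was 20 (40%, with 4.64%); the Ly6Clo group has 1 library, assumed to vary like the replicated groups. The members' median relative change was -1.29, from -3.83 for Rrm2 to 0.14 for Orc4, over a median of all genes that moved by 0.04. The 5 largest falls were those of Rrm2 (log2 change -3.79, SE 0.17), Tyms (-3.33, SE 0.13), Cdc45 (-3.02, SE 0.18), Mcm10 (-2.91, SE 0.16) and Pole (-2.65, SE 0.21). Ly6Clo held 6.41%, 8.89%, 10.1%, 9.51% and 10.6% of the Ly6Chi mean of these genes. The Ly6Clo library lies below both Ly6Chi libraries for 47 members (41.2% of all genes) and above both for Orc4. In all, 33 members were called lower at both steps, 13 at the first step alone, Dbf4 at the second alone, and Orc4, Orc5 and Pold3 at neither. Of all genes tested, 2.29% were called lower at both steps, 20.1% lower at the first and not called at the second, 2.52% not called at the first and lower at the second, and 40% called at neither. These comparisons share the 2 Ly6Chi libraries.

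Several marker lists of other cells also had higher sums in the Ly6Clo library than in Ly6Chi. Neutrophil markers summed to 4995 TPM there, against 1449 and 1834 in Ly6Chi, 400 and 294 in cMoP and 1513 in MDP. Of the 10 neutrophil markers, 9 were above both Ly6Chi libraries in Ly6Clo. Mmp8 was not, at 151 and 145 TPM in Ly6Chi and 28.2 in Ly6Clo. Erythroid markers summed to 319 TPM in Ly6Clo, 35.9 and 190 in Ly6Chi and 28.2 and 4.91 in cMoP, with 8 of 10 at 1 TPM or more in Ly6Clo. B and plasma cell markers summed to 82.2 TPM in Ly6Clo, 24.6 and 28.8 in Ly6Chi, 48.2 and 38.0 in cMoP and 52.7 in MDP. All 10 were above both Ly6Chi libraries in Ly6Clo. Cd79b alone was at 35.4 TPM in Ly6Clo, 43.6 and 35.5 in cMoP and 39.0 in MDP. Dendritic cell markers summed to 565 TPM in MDP, 161 and 202 in Ly6Chi and 521 in Ly6Clo, where Itgax (186 TPM), which the list of Ly6Clo markers also holds, and Cd209a (168 TPM) led the sum. Of the 10 dendritic markers, 6 were above both Ly6Chi libraries in Ly6Clo, and Bst2, Xcr1, Flt3 and Bcl11a were not. T and NK cell markers summed to 6.38 TPM in Ly6Clo and at most 2.51 elsewhere. The part of such cells in the members' levels was not tested. The defining Ly6Clo markers summed to 4390 TPM in Ly6Clo against 571 and 614 in Ly6Chi. The Ly6Chi markers summed to 47201 and 48869 TPM in Ly6Chi and 22879 in Ly6Clo. Of these last sums, Lyz2 alone made 36103 and 38197 TPM in Ly6Chi and 22059 in Ly6Clo. Ly6c2 stood at 3439 and 4057 TPM in Ly6Chi and 62.8 in Ly6Clo, and Fn1 at 3061 and 2444 and at 35.0. None of the 7 Ly6Chi markers was above both Ly6Chi libraries in Ly6Clo.

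Whether a member changed more at the second step than at the first was compared in the same fit by a contrast of the 2 steps, which was chosen after the values were seen. Of the 50 members, 8 were lower in this contrast and 2 higher, against 12.7% and 8.65% of all genes. The 8 for which the second fall was the deeper one were Rrm2 (relative contrast -2.87, limma adjusted p = 0.00206), Tyms (-2.05), Mcm10 (-1.62), Cdc45 (-1.46), Pole (-1.33), Dbf4 (-1.26), Chaf1a (-0.98) and Gmnn (-0.86). The 2 for which the first fall was the deeper one were Orc1 (1.55, limma adjusted p = 0.0438) and Pola2 (1.11). No member was higher with the compared groups alone or with the replicate block, against 512 and 623 of 13126 genes. Orc1 stood at 1.79 and 2.01 TPM in Ly6Chi and 0.68 in Ly6Clo, levels at which the added 1 shrinks its second fall. Leaving out Ly6Chi replicate 1 left 1 call and leaving out replicate 2 left 2, without either knockout library the count was 5, and without cMoP replicate 1 it was 21 (42%, against 44.96% of all genes). With a pseudocount of 0.1 in place of 1, 9 members were lower and 1 higher, against 1597 and 988 of 13126 genes. The share of members called lies near the share of all genes.

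**Figure D3:**
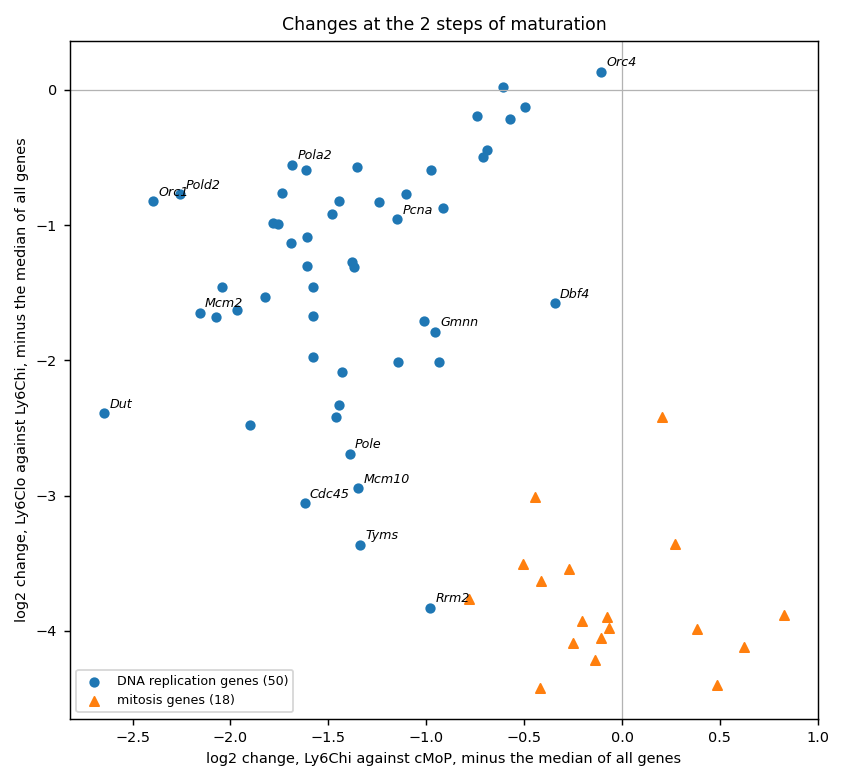
Relative log2 change from Ly6Chi to Ly6Clo (vertical) against that from cMoP to Ly6Chi (horizontal) for the 50 replication genes (circles) and 18 mitosis genes (triangles). The replication genes lie left of zero on the horizontal axis, with Orc4 nearest to it, and the mitosis genes lie around zero on it and below -2.4 on the vertical axis.

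Genes that work beside the members were compared by the same fit, from lists of known function. Over all genes, 23.3% were lower and 32.3% higher at the first step, and 7.12% lower and 5.9% higher at the second. The 18 mitosis genes had a median relative change of -0.12 from cMoP to Ly6Chi, with 3 called higher (Mki67, Kif11 and Ccnb2) and 1 lower (Cdk1), and of -3.91 from Ly6Chi to Ly6Clo, with 18 lower. Cdk1, the kinase that starts mitosis, stood at 235 TPM in MDP, 225 and 255 in the cMoP pair, 160.0 and 159 in Ly6Chi and 11.1 in Ly6Clo. With median centring 0 were higher and 3 lower at the first step, and with quantile normalization 1 and 5. The count of 4 at the first step dropped to 0 when either Ly6Chi library was left out, was 2 when cMoP replicate 2 or a knockout library was left out and 9 when cMoP replicate 1 was, and the count of 18 at the second step was kept in every alternative. In the contrast of the 2 steps, 18 of 18 mitosis genes were lower, and the summed mitosis TPM was 108% and 101% of the cMoP mean in Ly6Chi and 6.58% in Ly6Clo, against 43.0% and 40.8% and 17.9% for the members.

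**Figure D4:**
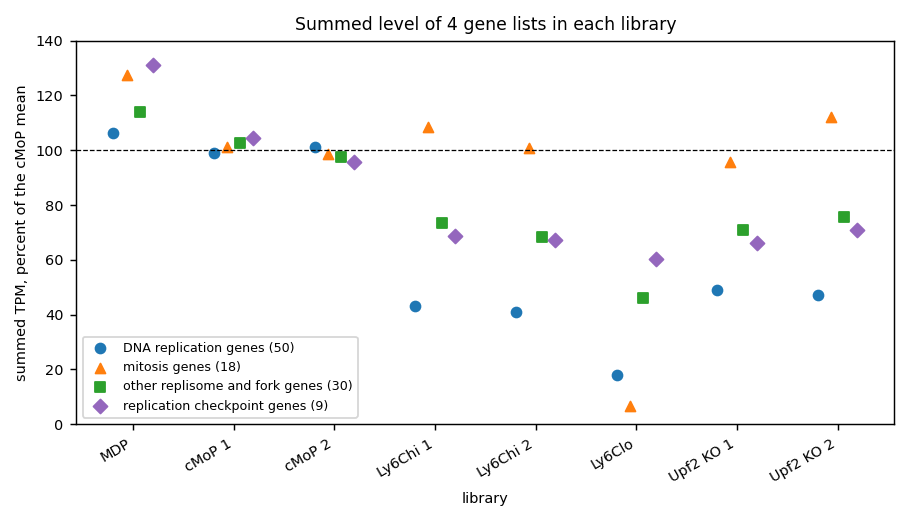
Summed TPM of 4 gene lists in each of the 8 libraries, as percent of the mean of the 2 cMoP libraries (dashed line at 100). In Ly6Chi the mitosis genes sit at 108% and 101% while the replication genes sit at 43.0% and 40.8%; in Ly6Clo they sit at 6.58% and 17.9%.

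Of 30 further replisome and fork genes, 17 were lower and 3 higher from cMoP to Ly6Chi, and 14 lower and 1 higher from Ly6Chi to Ly6Clo. The shares of all genes were 23.3% lower and 32.3% higher at the first step, and 7.12% and 5.9% at the second. Tipin and Mcm8 were the most lowered at the first step (log2 changes -1.64 and -1.59) and Dna2, a helicase-nuclease, was the most raised (1.90). At the second step Clspn, the checkpoint adaptor of the fork, fell by 3.42 and Asf1b, a histone chaperone, by 3.09 on the log2 scale. Uhrf1, which takes part in the copying of DNA methylation, stood at 209 TPM in MDP and 161 and 136 in the cMoP pair. It stood at 58.9 and 56.2 in Ly6Chi and 6.25 in Ly6Clo. Of 16 further nucleotide supply genes, 10 were lower and 6 higher at the first step. Samhd1, which destroys deoxynucleotides, was the most raised (log2 change 3.64), at 96.2 and 72.7 TPM in cMoP and 1065 and 1043 in Ly6Chi. Dctd (-3.76), Shmt1 (-3.28) and Ctps (-2.51), which make precursors of thymidine and cytidine nucleotides, were the most lowered. At the second step 4 of the 16 were lower and none higher. The counts of both lists moved over the alternatives.

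Of 22 genes of E2F, pocket proteins and G1-S control, 11 were lower and 5 higher from cMoP to Ly6Chi, and 10 lower and 3 higher from Ly6Chi to Ly6Clo. These counts moved over the alternatives as well. For this and the next 2 lists, the shares of all genes were 23.3% lower and 32.3% higher at the first step. At the second step they were 7.12% and 5.9%. E2f2 was the most raised at the first step (log2 change 3.25), with 14.4 and 10.6 TPM in cMoP and 128 and 124 in Ly6Chi, and Rb1, the retinoblastoma gene, rose by 2.07. The D cyclin Ccnd2 fell by 4.26 and the kinase gene Cdk6 by 3.30 on the log2 scale. At the second step Ccnd1 was higher (3.24), E2f8 was lower (-3.76) and Ccne1 was lower (-2.99). From MDP to cMoP the E2F list had 2 lower genes, Ccnd1 (-2.51) and Ccnd2 (-1.84), and none higher. Of all genes 2.52% were lower there and 1.35% higher. Of 9 tested genes of the 11 that inhibit cyclin-dependent kinases or hold back proliferation, 8 were higher at the first step and none lower, led by Btg2 (3.31) and Btg1 (2.88); over the alternatives the count of higher genes ran from 1 to 9. At the second step 1 of the 9 was higher and 3 were lower. Of 9 replication checkpoint genes, 5 were lower at the first step, led by Chek1 (-1.74), and at the second step Wee1 (-2.47) and Chek1 (-1.78) were lower and none higher.

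In the knockout, the spliced reads at the junction of exons 2 and 3 of Upf2 were 10 and 13, against 41 and 45 in control Ly6Chi, while Upf2 TPM was 20.4 and 22.4 against 20.1 and 18.2. The junction reads were lower in both knockout libraries than in both controls, and the TPM was not. This was not particular to that junction, which is intron 2. At intron 1 the knockout pair had 2 and 12 reads, against 42 and 45. At intron 3 it had 13 and 34, against 90 and 63. At intron 4 the knockout pair had 49 and 95, against 90 and 101. At intron 5 it had 70 and 110, against 103 and 84, so that the groups overlap at introns 4 and 5. Over introns 1, 2 and 3, cMoP replicate 2, the library with the strongest 3' lean, had 14, 16 and 41 reads. It had 50 and 58 at introns 4 and 5. For cMoP replicate 1 the reads were 28, 38 and 73 at introns 1, 2 and 3, and 99 and 101 at introns 4 and 5. Over 6953 genes the median 3' lean was 0.51 and 0.36 in the knockout pair, 0.36 in cMoP replicate 1 and 0.54 in replicate 2. The part of the lean in these reads was not tested. Between knockout and control Ly6Chi, 0 members were called by limma, DESeq2 or edgeR on spliced reads. Of all genes, limma called 0% higher and 0.00762% lower. In either direction DESeq2 called 0.783% of all genes and edgeR on spliced reads per gene 0.00843%. By limma 9 members (18%) were at an unadjusted p under 0.05, against 14.6% of all genes. That share varied between settings: 40% with median centring (16.9% of all genes) and 54% with quantile normalization (20.8%). On spliced reads per gene it was 36.7% with edgeR (15.9%) and 38.8% with DESeq2 (14.9%). It was 8% with the replicate block (10.1%) and 6% with the 3' lean as a covariate (4.53%). Both knockout libraries were above both control libraries for 32 members (22.8% of all genes) and below them for Orc2, Orc3, Pola1 and Rfc1 (45.5% of all genes). The median of all genes moved by -0.12, and the members' median relative change was 0.31, from -0.53 for Orc3 to 0.67 for Fen1. The knockout held 114% of the control TPM in the median member. The 3' lean over the members was 0.48 and 0.35 in the knockout and 0.14 and 0.25 in the controls, and its part in the members' levels was not tested beyond the fit with it as a covariate, which also called none. No tested gene of the 6 lists of neighbouring pathways was called in the knockout by limma.

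Fen1 and Orc3 had the largest changes in each direction, and they and Dut, Tyms and Pcna are given here with their values already seen. Fen1, the flap endonuclease, was at 40.2 and 38.4 TPM in control Ly6Chi and at 56.4 and 59.5 in the knockout. Orc3 was at 47.1 and 42.0 and at 25.98 and 30.1. For each the groups do not overlap, and neither passed the test (log2 changes 0.55, SE 0.13, and -0.65, SE 0.14, adjusted p = 0.336 for both). Pcna was at 254 and 264 in the controls and 349 and 305 in the knockout (adjusted p = 0.336). Dut was at 53.8 and 56.8 in the controls and at 80.6 and 71.2 in the knockout. Tyms was at 85.1 and 81.7 in the controls and at 114 and 112 in the knockout. The knockout libraries lie above the controls for both genes, and neither was called.

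**Figure D5:**
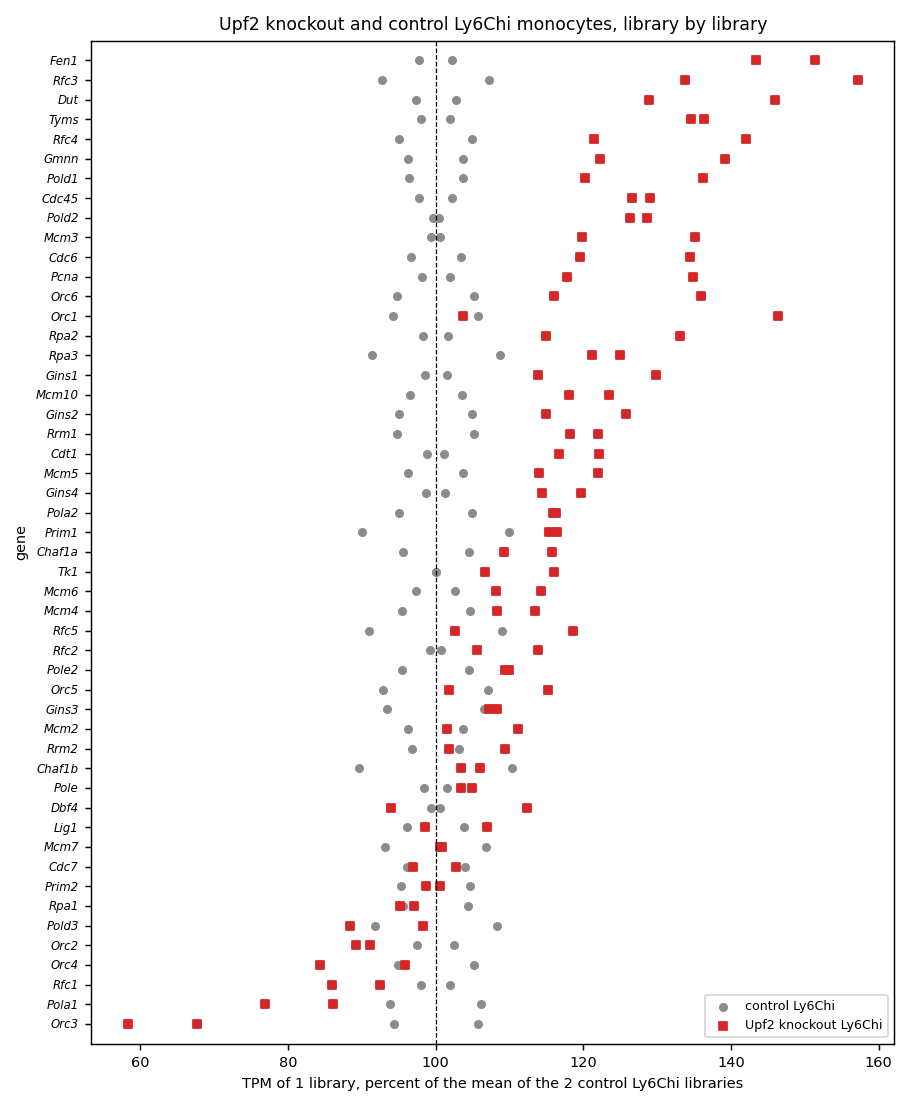
TPM of each of the 2 control Ly6Chi libraries (circles) and 2 Upf2 knockout libraries (squares) as percent of the control mean, for the 50 genes ordered by the knockout mean. Both knockout libraries lie above both control libraries for 32 genes, with Fen1 at the top (147% of the control mean) and Orc3 at the bottom (63.0%).

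Retention of the members' introns was low and none was called. Of 361 introns of 43 members tested with edgeR's quasi-likelihood test on boundary reads against spliced reads, 0 were called in each of the 4 comparisons, against 0.00416% of all introns higher and 0.0104% lower from cMoP to Ly6Chi, 0.00208% higher and 0% lower for the knockout, and 0% in either direction for the other 2, and DESeq2 also called 0. At an unadjusted p under 0.05 there were 29 from MDP to cMoP, 29 from cMoP to Ly6Chi, 15 from Ly6Chi to Ly6Clo and 20 for the knockout. That is 8.03%, 8.03%, 4.16% and 5.54% of the 361, against 8.35%, 10.9%, 4.97% and 6.94% of all introns tested, so that each share lies below the one over all introns. Without cMoP replicate 1, the first 2 counts of calls were 75 (20.8%) and 65 (18.01%), against 10.3% and 14.5% of all introns. The median log2 change of boundary over spliced reads was -0.40 for member introns and -0.39 for all introns from MDP to cMoP, 0.30 and 0.38 from cMoP to Ly6Chi, 0.24 and 0.11 from Ly6Chi to Ly6Clo, and -0.32 and -0.32 for the knockout. A retention ratio of at least 0.1 was found in 17 member introns in MDP, 9 and 1 in the cMoP pair, 19 and 15 in Ly6Chi, 30 in Ly6Clo, while the knockout pair had 8 and 12. That is 4.71%, 2.49% and 0.277%, 5.26% and 4.16%, 8.31%, and 2.22% and 3.32% of the 361, against 8.17%, 5.96% and 2.07%, 8.22% and 7.78%, 11.03%, and 4.33% and 5.12% of all introns tested. The shares vary most between the 2 cMoP libraries, of which replicate 2 has the fewest boundary reads per spliced read.

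Among single introns, those with the highest mean ratios come first. Those with the smallest p-values at the first step and in the knockout follow. The 607-base intron of Prim1 (Prim1-205, intron 7 of 12, chr10:128022973-128023579, between coding exons) had ratios of 0.277 in MDP, 0.268 and 0.136 in the cMoP pair, 0.259 and 0.283 in Ly6Chi, 0.233 in Ly6Clo, while the knockout pair had 0.237 and 0.275. At most 1 read in any library joined both of its ends, and the other spliced reads at these ends belong to other junctions. The 1557-base intron 2 of Orc6 (Orc6-201, chr8:85301239-85302795) had 0.303, then 0.228 and 0.0656, 0.247 and 0.208, 0.356, and 0.101 and 0.135, and the groups overlap; a 384-base intron that starts at the same place (chr8:85301239-85301622) shares its left boundary reads and is not a separate measurement. The other introns with a high mean ratio had at most 1 spliced read in any library, so their ratios of mostly 0 or 1 cannot be read as retention: an 8387-base intron of Pold3 and a 3891-base intron of Mcm2 on a transcript with no coding sequence. The 252-base intron 3 of Pcna (Pcna-201, chr2:132251439-132251690, between coding exons) had 0.0180, then 0.0199 and 0.0053, 0.0570 and 0.0486, 0.0440, and 0.0221 and 0.0268. Both Ly6Chi libraries lie above both cMoP and both knockout libraries, with a log2 change of 2.24 from cMoP to Ly6Chi that did not pass edgeR's test (adjusted p = 0.397) and was called with TMM scaling of boundary and spliced reads, without the count filter and without either cMoP replicate. Orc3-201 intron 13 of 19 (chr4:34579877-34584803, 4927 bases) had 59 and 53 reads across its left boundary in the knockout, which is its 3' end because the gene lies on the minus strand, against 7 and 1 in the controls and 11, 4 and 2, and 3 in MDP, cMoP and Ly6Clo. Its other boundary had at most 3 reads in any library and its ratio was at most 0.0194. The log2 change was 3.75 (adjusted p = 0.397), and it was called with TMM scaling, without the count filter, with the compared groups alone and without either cMoP replicate, and in no other alternative run.

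Orc3 TPM was lower in both knockout libraries than in both controls, yet the spliced reads at its last intron gave a log2 change of 0.09 where the TPM gave -0.65. Gins4, Rfc3 and Rpa2 had the largest log2 changes of single introns in the knockout, the first and the second step (-5.55, -2.98 and -5.48) on few boundary reads.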

How the data were processed

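Polyadenylated RNA of 8 libraries in 5 groups was sequenced as 100-base read pairs from poly-A TruSeq libraries that keep the strand, per the labels' protocols. FastQC and Trimmomatic, the aligner STAR 2.5.2a and the quantifier RSEM are named, without order or settings, per the submitters' processing notes. Expression values deposited by the authors are named FPKM in the file but sum to 1000000 per library, so they were treated as TPM. The deposited intron tables give counts of boundary and spliced reads, a coverage signal and a fraction (the retention ratio), which was recomputed from the deposited columns within 0.0001 for 93.1% to 94.5% of introns.

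Expression was fitted with limma 3.58.1 (moderated by a mean-variance trend) on log2(TPM + 1) for 13126 genes over all 8 libraries, with 3 residual degrees of freedom. For the 48132 introns with at least 20 boundary plus spliced reads in every library and 20 boundary reads over all libraries, edgeR 4.0.16's quasi-likelihood test compared boundary with spliced counts. DESeq2 1.42.0, edgeR on spliced reads, other filters, scalings, pseudocounts, covariates, a replicate block and leaving out each replicate were alternatives. P-values were adjusted by Benjamini-Hochberg over all genes or introns. R 4.3.3 and Python 3.11.15 were used. Intron numbers and places are from GENCODE M21, which holds 691 of the 692 member introns; promoter windows are from RefSeq. In simulated data for cMoP against Ly6Chi, changes were planted in well expressed genes among 13126. The expression test recovered 92% of log2 changes of 1 and 100% of 2. For introns, changes were planted among 48132 only where spliced reads were many and the boundary share was high. The intron test recovered 1% of log2 changes of 1 and 60% of 2 there, so it can miss most changes of 1. Recovery in introns with fewer reads or a lower boundary share was not simulated. The median retention ratio of the member introns was 0.0026 to 0.0115 over the libraries.

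Values in every control library were given for the highest member of each role and the 10 largest called changes from cMoP to Ly6Chi. The same holds for up to 5 in each other comparison and the called members moving against the majority. For pathway lists up to 4 called genes per comparison were named, most with log2 changes alone. The 5 introns with the highest mean ratio and the largest change per comparison were named, some without values by library. Fen1, Orc3, Dbf4, Pole2 and other members named beside these were chosen after their values were seen. The members and lists were chosen with earlier results of these data known.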

Additional observations from a re-analysis of the deposited data

How the results depend on the processing

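The direction of the members' calls was the same in every alternative run: none was called higher from cMoP to Ly6Chi or from Ly6Chi to Ly6Clo. The count from cMoP to Ly6Chi (46) was 35 to 46 when a replicate was left out and 40 to 49 otherwise, and the count varying over the control stages (47) was 44 to 49. From MDP to cMoP (0) quantile normalization and DESeq2 each gave 1, and leaving out a replicate gave 0 to 10. From Ly6Chi to Ly6Clo (34) leaving out a replicate gave 19 to 43. The contrast of the 2 steps (10) gave 17 with quantile normalization, 5 with the compared groups alone, 4 with the replicate block and 1 to 21 with a replicate left out. The knockout gave 0 throughout. Replicate numbers were not shown to pair libraries: deviations of same-numbered cMoP and Ly6Chi libraries correlated at 0.063, cMoP and knockout at -0.136, and Ly6Chi and knockout at -0.13. With the replicate block the counts were 43 and 27 for the 2 steps and 0 for the knockout, and crossing the knockout numbers gave 0 there as well. For introns (0 in each comparison), the count without a filter on counts was 1 from MDP to cMoP, 7 from cMoP to Ly6Chi and 1 for the knockout. Those are 0.182%, 1.28% and 0.182% of the member introns, against 0.0362%, 0.321% and 0.117% of all introns. TMM scaling gave 3 (0.831%) from cMoP to Ly6Chi and 1 (0.277%) for the knockout, against 0.409% and 0.129% of all introns. The compared groups alone gave 2 (0.554%) from Ly6Chi to Ly6Clo and 3 (0.831%) for the knockout, against 0.879% and 0.814%. Leaving out a replicate gave 0 to 75, 0 to 65, 0 to 1 and 0 to 3 in the 4 comparisons in order. Orc3 changed by 0.09 in the knockout with edgeR on spliced reads at the last intron, against -0.65; the cause was not tested. MDP and Ly6Clo have 1 library each, which limits every comparison with them, and intron changes of log2 1 were mostly below what the intron test could detect.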
